A study of Mus musculus with 16 samples.

Results

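RNA-seq libraries of pancreatic islets cultured with IL-1β plus butyrate were compared with those of control islets cultured with neither, 8 of the 16 libraries of the series. The rule took the 4 libraries labelled with both agents and the 4 control libraries. Islets came from 12-week-old male mice of a C57BL/6 strain, which the labels spell C57BL/6JRj, with no genetic change named in any group. All were cultured for 10 days: the control islets without addition, the combined group with 50 pg/mL of the cytokine IL-1β and 0.2 mM butyrate. The remaining groups, 4 libraries each, received 50 pg/mL IL-1β alone or 0.2 mM butyrate alone, and were used to place the combined state. They also entered the fit of all 16 libraries, and so its filter, its normalization and its estimate of spread. Per the methods, RNA came from 500 islets a library, pooled from several mice, so that a library stands for a pool of animals and of all islet cell types. Counts assigned to genes ranged from 21311240 to 24822759 in the control libraries and from 19713325 to 23688084 in the combined libraries.

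IL-1β is an inflammatory cytokine that signals through its receptor to NF-κB, a transcription factor that switches on cytokines, acute phase proteins and its own inhibitors. Beta cells carry much of the IL-1 receptor, and in islets the cytokine is known for lowering insulin secretion and for inducing inflammatory enzymes. Butyrate, a short chain fatty acid, is released when gut bacteria ferment fibre. It inhibits histone deacetylases, the enzymes that remove acetyl groups from histones, and it is known to slow the cell cycle and to act on G protein-coupled fatty acid receptors.

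With both agents, islets had higher levels of secreted acute phase and complement transcripts, lower levels of many mature beta cell transcripts and much lower levels of mitotic transcripts. The most raised of the abundant genes was Lcn2 (lipocalin 2, an iron-scavenging antimicrobial protein), and the most lowered was Nptx2 (neuronal pentraxin 2, a secreted protein of synapses). Of 18587 genes tested, 5688 changed (30.6%), of which 2937 were raised (15.8%) and 2751 lowered (14.8%), at an adjusted p under 0.01 by edgeR's quasi-likelihood test with Benjamini-Hochberg adjustment, here called FDR. Fold changes are on the log2 scale and always the combined group against control unless another contrast is named. Errors are standard errors, with n = 4 libraries a group. Expression is in CPM, the count of a gene scaled to its library total after adjustment by TMM, a normalization between libraries. At least 2-fold changes were 924 upward (4.97%) and 402 downward (2.16%), so most changes were small, with a median size of 0.47 among the genes that passed. The CPM of the 4 combined and 4 control libraries did not overlap for 7154 genes (38.5%). The 10 largest rises and 10 largest falls were named only among such genes, so for them the lack of overlap follows from the selection. Counts of list members changed with both agents stand beside these shares of 15.8% raised and 14.8% lowered, and statements of no overlap beside the 38.5%. With scaling by library size alone, 66.9% of the calls were raised instead of 51.6% (3805 raised, 1884 lowered).

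**Figure D1:**
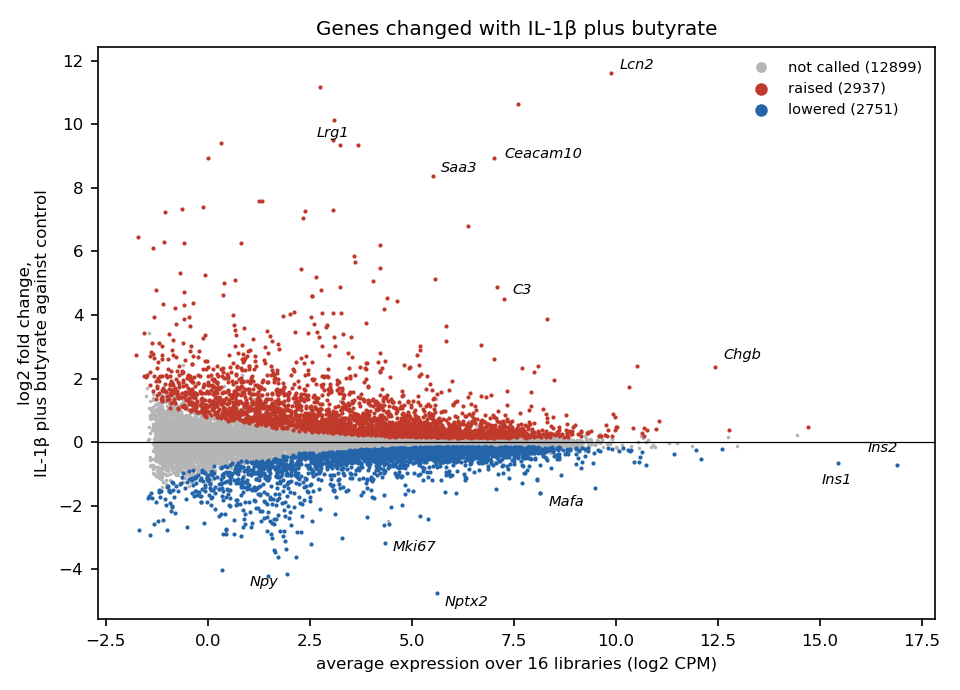
Log2 fold change of each of the 18587 genes tested (vertical axis, IL-1β plus butyrate against control) by its average expression in log2 CPM over 16 libraries (horizontal axis). Red points are the 2937 raised and blue points the 2751 lowered genes, and grey points did not pass an FDR of 0.01. Lcn2 stands at 11.62, Nptx2 at -4.75, and both insulin genes lie below 0 at the right end of the expression range.

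To describe where the combined state stood relative to each agent alone, every changed gene was placed by its difference from both single exposures. These contrasts share libraries, so the placing is a description and not an independent test. On the IL-1β side, 910 raised (4.9%) and 441 lowered genes (2.37%) differed from butyrate alone in the same direction and did not pass against IL-1β alone. On the butyrate side, 814 raised (4.38%) and 1077 lowered genes (5.79%) differed from IL-1β alone and did not pass against butyrate alone. A smaller set of 287 raised (1.54%) and 150 lowered genes (0.807%) stood beyond both single exposures. For 751 raised (4.04%) and 1029 lowered genes (5.54%) neither difference passed, and 175 raised and 54 lowered genes differed from at least 1 single exposure in the direction opposite to their change from control. IL-1β alone changed 3311 genes against the same controls (17.8%), of which 2087 were raised (11.2%) and 1224 lowered (6.59%). Butyrate alone changed 3697 (19.9%), of which 1585 were raised (8.53%) and 2112 lowered (11.4%). List counts given below for a single agent stand beside that agent's own shares.

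A direct test of whether the combined effect departed from the sum of the single log2 effects, the interaction term, passed for 18 genes (0.0968%), 10 of them downward (0.0538%) and 8 upward (0.043%). At an unadjusted p under 0.05 there were 1362 of 18587. Where no interaction exists, that threshold still passes a share of about 0.05 of the genes. DESeq2 called 52 at an adjusted p under 0.01. Of the 437 genes beyond both single exposures, 4 were among the 18. With replicate number as a block, 132 genes passed for the interaction, and 469 raised and 301 lowered genes stood beyond both.

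Acute phase and antimicrobial secreted proteins had the highest median of the gene lists examined: 20 of 22 tested members rose, each at least 2-fold, and none fell, with a median of 6.93 against 0.00 for all genes tested. Of the 28 members listed, 6 were too low to test. The median was 4.68 when the 12 members with at most 3 counts in every control library were set to their fold over 3 counts a library. Lcn2 (ENSMUSG00000026822, chr2:32384633-32388252, minus strand, GRCm38) was at 0.373, 0.292, 0.717 and 1.67 CPM in the control libraries and at 1661, 2641, 2178 and 3238 CPM in the combined libraries (log2 fold change 11.62 ± 0.64, FDR = 9.4e-09). Every combined library was far above every control library.

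Steap4 (a metalloreductase) went from 0.327, 0.0417, 0.143 and 0.385 CPM in control to 392.1, 408, 302 and 349.8 CPM with both agents (log2 fold change 10.63 ± 0.40, FDR = 2.0e-10). Saa3 (serum amyloid A3, an acute phase apolipoprotein) had 0.187, 0.292, 0.478 and 0.428 CPM in control and 131, 129.6, 83.6 and 121 CPM in the combined group (log2 fold change 8.37 ± 0.33, FDR = 2.1e-10). Neither gene's groups overlapped. Ceacam10, of the carcinoembryonic antigen family of adhesion proteins, had 0.700, 0.667, 0.717 and 1.16 CPM in control against 249.6, 438, 494 and 443 CPM, again without overlap (log2 fold change 8.95 ± 0.42, FDR = 1.9e-09).

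Several members were close to absent in control islets, where a fitted fold depends on the small count added by the fit. Serpina3e-ps, annotated as a pseudogene of the serine protease inhibitors, had no count in any control library and 12.3, 16.3, 11.8 and 12.0 CPM with both agents, at least 97.6-fold above 3 counts a library. Orm1 (orosomucoid, a plasma carrier protein) likewise had no control count and was at least 29.0-fold higher, and Saa1 at least 21.0-fold. Lrg1 (leucine-rich alpha-2 glycoprotein) had 5 counts over the 4 control libraries and 3619 over the combined ones, a ratio of 707 (exact 95% interval 303 to 2179.8). That interval, like the others given for such genes, covers counting error only. Serpina3i had 2 and 1687 counts, a ratio of 824 (95% interval 228 to 6812), and Serpina3f 1 and 1754 counts, a ratio of 1714 (95% interval 307 to 67744). The Serpina3 and Saa genes are near-identical copies, so the share of reads that belongs to each is uncertain.

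This group was high with IL-1β alone and with both agents, and mostly not with butyrate alone. IL-1β alone had a median of 6.52 and raised 19 of the 22, while butyrate alone had a median of 0.53 and raised 1. In 13 of the 20 raised members the combined level could not be told from that of IL-1β alone, and 7 stood above both single exposures. Among the 7, Saa3 passed against IL-1β alone at FDR = 0.0015, Lrg1 at FDR = 0.0011 and Slpi at FDR = 0.0026. Slpi (a secreted leukocyte protease inhibitor) had 8 counts over the control libraries and 1338 over the combined ones, a ratio of 163 (95% interval 82.7 to 379).

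**Figure D2:**
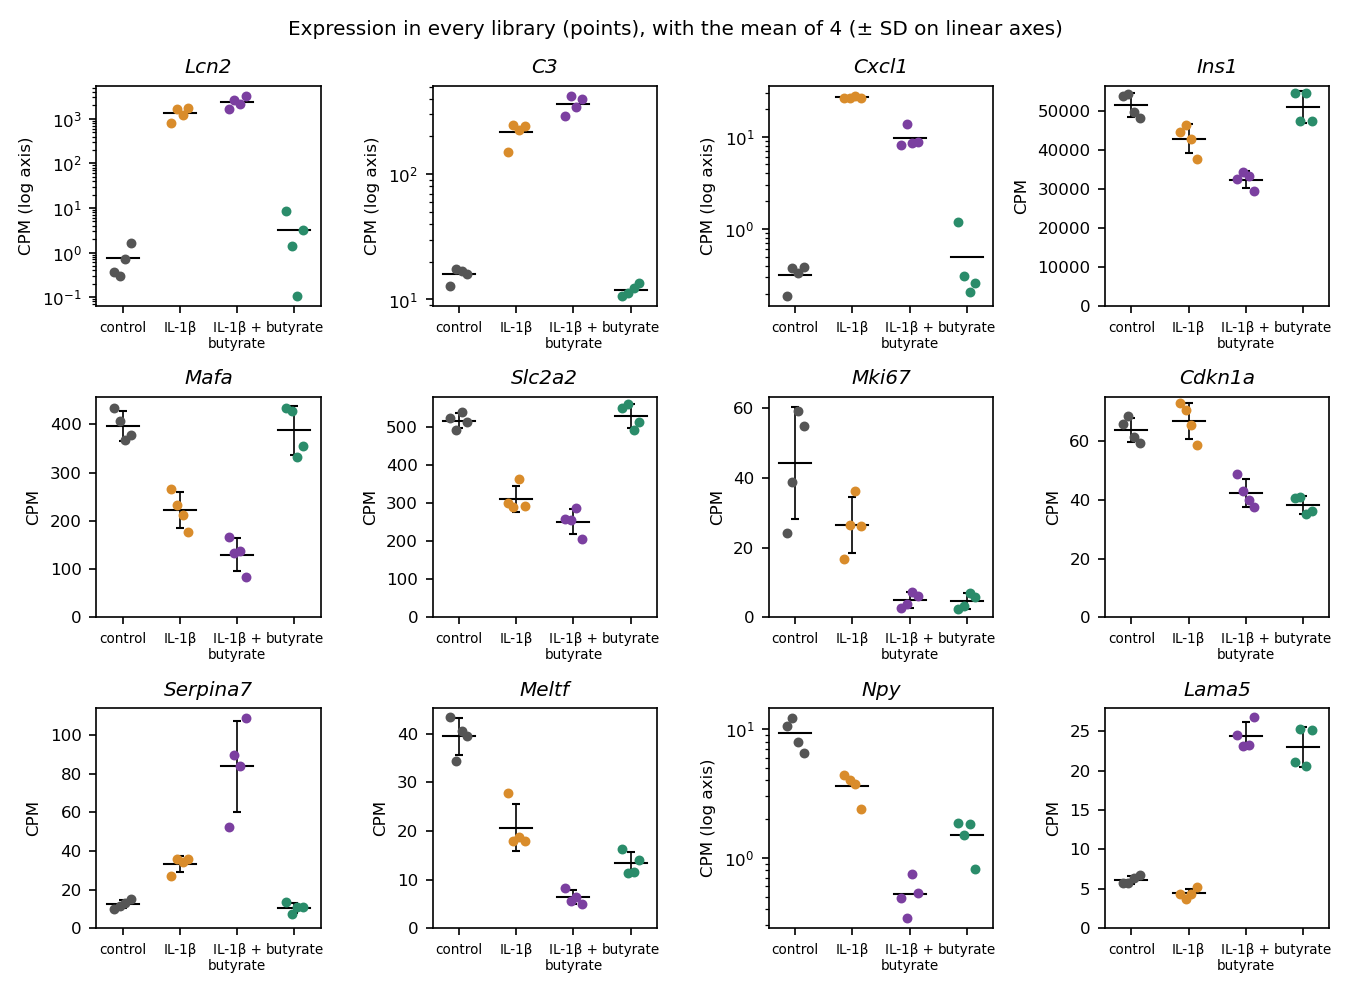
CPM of 12 genes in each library of the 4 groups (points), with the mean of 4 libraries as a bar and ± SD on the linear axes; Lcn2, C3, Cxcl1 and Npy are on log axes. Lcn2 and C3 were high in both IL-1β groups, Mki67 was low in both butyrate groups, Ins1 and Meltf were lowest with both agents, and Lama5 was high in both butyrate groups.

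Complement, the plasma cascade that tags and lyses microbes, rose with it: 15 of 18 tested members were raised and 1 was lowered, with a median of 1.65. C3, its central component, had 12.7, 17.4, 17.0 and 16.1 CPM in the control libraries and 292, 419.9, 345 and 396 CPM in the combined libraries (log2 fold change 4.52 ± 0.19, FDR = 4.0e-10). Cfb (factor B of the alternative pathway) went from 0.0933, 0.167, 0.0956 and 0 to 12.4, 15.1, 14.7 and 17.9 CPM (log2 fold change 7.30 ± 0.34, FDR = 1.3e-11). For both genes all combined libraries lay above all control libraries. C3 was also above IL-1β alone (FDR = 0.0024), whereas Cfb was not told from it (FDR = 0.21).

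Among the inhibitors of the cascade were Serping1 (the C1 inhibitor) at 2.62 and Cd55 (decay-accelerating factor) at 1.00, both raised. The lowered member was C1qa, a chain of the recognition protein C1q that macrophages make, at 124, 116, 105 and 99.6 CPM in control and 58.2, 49.4, 52.0 and 45.0 CPM with both agents (log2 fold change -1.12 ± 0.12, FDR = 4.2e-06). Its partner chain C1qc rose, from 2.33, 2.88, 2.82 and 3.30 to 6.66, 8.62, 12.5 and 15.2 CPM (log2 fold change 1.91 ± 0.27, FDR = 7.0e-05), and so did C1qb (1.69). Neither pair of groups overlapped.

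Macrophage markers moved beside these changes. Of 15 markers tested, 11 rose and C1qa fell, with Itgam (an integrin chain of myeloid cells) at 2.69 and Csf1r (the receptor for colony-stimulating factor 1) at 1.69, while Adgre1 (1.19) and Cd68 (0.63) did not pass. No marker was at 0 in all 8 libraries. The 15 summed to 146 to 156 CPM in control and to 123 to 188 CPM with both agents, and without C1qa to 30.3 to 46.1 CPM in control and 65.1 to 143 CPM. IL-1β alone gave 151 to 265 CPM on the latter sum, and butyrate alone 20.9 to 34.4. In these bulk samples more cells of a type and more RNA per cell cannot be told apart, and the part of macrophages in the complement and cytokine results was not tested. The annotated exons of Itgam overlap those of Gm49368 on the same strand over 68.7% of their length.

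NF-κB subunits and feedback inhibitors rose in 14 of 20 tested members, 11 of them at least 2-fold, and none fell (median 1.42). Zc3h12a (regnase-1, an RNase that degrades cytokine transcripts) went from 1.21, 0.792, 1.00 and 0.984 CPM in control to 35.1, 35.0, 32.0 and 30.6 CPM in the combined libraries (log2 fold change 5.06 ± 0.12, FDR = 2.8e-22). Birc3 (the ubiquitin ligase cIAP2, which restrains cell death downstream of TNF receptors) went from 11.9, 9.42, 9.22 and 7.83 to 73.9, 77.5, 63.5 and 70.1 CPM (log2 fold change 2.90 ± 0.08, FDR = 1.0e-19). Tnfaip3 (A20, a deubiquitinating inhibitor of NF-κB) had 6.25, 5.17, 5.26 and 5.26 CPM in control and 17.7, 16.5, 16.3 and 15.3 CPM (log2 fold change 1.59 ± 0.10, FDR = 4.4e-13). None of these 3 genes had overlapping groups.

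Among the subunits, Nfkb2 rose by 2.09 and Relb, its partner in the noncanonical pathway, by 1.26, and Nfkb1 rose by 0.31. Rela (0.03) and Rel (0.08) did not pass. Butyrate alone raised 1 member and lowered 1, with a median of -0.01, and IL-1β alone raised 17 with a median of 1.56.

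The 250 bases before the start of 12546 of the tested genes, from RefSeq on GRCm38.p6, were searched on both strands for the 10-letter NF-κB consensus. Of the NF-κB list, 16 members had a promoter and 50% of them held a match, against 8.69% of all promoters searched. Of 18 acute phase promoters 16.7% held one. Outside these lists raised and lowered genes were alike. On the IL-1β side 12.2% of the promoters of raised and 10.6% of those of lowered genes held a match. Beyond both single exposures the shares were 14.2% and 12.2%. A match is a match of letters and not a measured site. The promoters of the 3 most raised list members with a match are shown because the list was among the most uniformly raised, with the matched letters in capitals; overlapping matches run together.
Tnfaip2 (chr12:111442411-111442660, plus strand): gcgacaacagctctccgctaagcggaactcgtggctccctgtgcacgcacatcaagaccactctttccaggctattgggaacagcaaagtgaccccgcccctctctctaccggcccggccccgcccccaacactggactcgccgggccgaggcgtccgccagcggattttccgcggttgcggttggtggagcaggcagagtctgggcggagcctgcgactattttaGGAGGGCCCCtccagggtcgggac
Nfkb2 (chr19:46304487-46304736, plus strand): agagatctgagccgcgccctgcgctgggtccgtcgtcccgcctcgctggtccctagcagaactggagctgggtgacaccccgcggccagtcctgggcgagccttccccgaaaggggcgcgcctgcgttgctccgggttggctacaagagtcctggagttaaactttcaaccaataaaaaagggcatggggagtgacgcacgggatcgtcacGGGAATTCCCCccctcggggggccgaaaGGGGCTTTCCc
Tnip1 (chr11:54962941-54963190, minus strand): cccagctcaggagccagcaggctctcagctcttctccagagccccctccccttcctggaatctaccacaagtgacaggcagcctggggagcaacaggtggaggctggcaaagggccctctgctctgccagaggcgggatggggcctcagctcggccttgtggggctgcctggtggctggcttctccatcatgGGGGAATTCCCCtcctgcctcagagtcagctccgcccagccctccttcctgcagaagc
Tnfaip2, a TNF-induced protein of the exocyst family, rose from 0.327, 0.625, 0.573 and 0.556 to 2.64, 2.67, 3.15 and 3.66 CPM (log2 fold change 2.52 ± 0.24, FDR = 1.8e-09), without overlap. Tnip1, which binds A20, rose by 1.82. Zc3h12a and Birc3, the 2 most raised members, held no match in this window. The RefSeq starts used lie 192, 417 and 23 bases from the GENCODE starts of Tnfaip2, Nfkb2 and Tnip1.

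Chemokines, which attract leukocytes, were a mixed group: 6 of 15 tested ligands rose and 1 fell, Cxcl12, which was not called when control replicate 3 or combined replicate 2 was left out, and 13 of the 28 listed were too low to test. Cxcl1 (a neutrophil attractant) was at 0.187, 0.375, 0.334 and 0.385 CPM in control and 8.04, 13.6, 8.63 and 8.86 CPM with both agents (log2 fold change 4.90 ± 0.32, FDR = 5.2e-09). All combined libraries were above control and all were below the IL-1β libraries, which had 26.5, 26.4, 27.6 and 26.4 CPM (FDR = 6.7e-06 against IL-1β alone). Ccl20, a ligand of CCR6, had 1 count over the control libraries and 295 over the combined ones, a ratio of 288 (95% interval 51.3 to 11425), and was also below IL-1β alone (FDR = 2.0e-04). Cxcl5 had no control count and 0.284, 0, 0.963 and 0.482 CPM with both agents, at least 3.22-fold above 3 counts a library, with 1 combined library at 0.

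Some inflammatory transcripts were not told from control in the combined group, which does not show that the levels were equal. Cxcl10 (an interferon-induced T cell attractant) had 0.420, 0.917, 0.478 and 0.599 CPM in control and 0.893, 0.764, 0.438 and 0.867 CPM with both agents, overlapping ranges (log2 fold change 0.28 ± 0.30, FDR = 0.52). Il1b had 2.43, 2.92, 2.20 and 1.71 CPM in control and 1.38, 1.53, 2.15 and 2.07 CPM (log2 fold change -0.39 ± 0.20, FDR = 0.14), and its groups overlapped too. IL-1β alone was above control for both, by 1.27 and 1.02, and the interaction did not pass for either gene. Nos2 (inducible nitric oxide synthase) had 0, 0, 0.0956 and 0.0428 CPM in control and 0.122, 0.382, 0.131 and 0.193 CPM with both agents, 3 against 19 counts in all, a ratio of 6.19 (95% interval 1.82 to 32.7) that did not pass (FDR = 0.021). With IL-1β alone Nos2 was at 1.76, 1.27, 2.28 and 2.09 CPM, above every combined library, and its interaction term passed (interaction -5.53 ± 0.94 on the log2 scale, FDR = 0.0044).

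Receptor and cytokine signalling genes split by direction. Il18r1 (a receptor chain for IL-18) rose from 0.840, 1.13, 0.860 and 1.03 to 2.68, 2.16, 2.06 and 2.07 CPM (log2 fold change 1.21 ± 0.21, FDR = 2.5e-05), whereas Irak1 (a kinase directly downstream of the IL-1 receptor) fell from 317, 297, 301 and 301 to 180.3, 170.1, 184 and 184 CPM (log2 fold change -0.76 ± 0.05, FDR = 7.8e-13). Neither pair overlapped, and Irak1 was below both single exposures. In the IL-1 family and receptor list as a whole 8 of 16 tested members rose and 1 fell (median 0.42), and 5 rose when control replicate 1 or 2 or combined replicate 3 was left out.

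The IL-6 and STAT3 axis had 6 raised and 2 lowered genes of 14 tested. Stat3, the transcription factor that drives acute phase genes, rose from 162, 144, 148 and 147 to 335, 332, 315 and 327 CPM (log2 fold change 1.13 ± 0.05, FDR = 4.2e-16). Socs3, its feedback inhibitor, went from 8.63, 8.51, 8.89 and 8.56 to 34.9, 33.3, 36.5 and 40.2 CPM (log2 fold change 2.07 ± 0.08, FDR = 8.2e-18), above both single exposures. Lif, a cytokine of the IL-6 family, rose by 2.53 while its receptor chain Lifr fell (log2 fold change -0.57). None of these groups overlapped.

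Antigen presentation genes rose in 15 of 19 tested members with none lowered (median 0.55), and interferon-stimulated genes in 16 of 33 with 1 lowered (median 0.30). Nlrc5, the transactivator of MHC class I genes, went from 0.373, 0.667, 0.812 and 0.642 to 2.68, 2.38, 2.36 and 2.60 CPM (log2 fold change 2.00 ± 0.21, FDR = 2.0e-08). Psmb8 (a catalytic subunit of the immunoproteasome) went from 8.21, 6.42, 7.17 and 6.93 to 13.6, 14.05, 13.1 and 15.6 CPM (log2 fold change 0.97 ± 0.09, FDR = 1.3e-09), below IL-1β alone (FDR = 4.9e-04). No library of one group reached the range of the other. H2-Q6 (2.86) and H2-Q7 (1.88) rose as well, but they are near-identical copies that share reads, and Psmb8 exons overlap Gm20496 on the other strand over 14.7% of their length.

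IL-1β alone raised 17 of the 19 presentation genes and 23 of the 33 interferon genes, with medians of 0.78 and 0.60. Butyrate alone raised 2 and lowered 7 of the first list, and raised none and lowered 5 of the second. Gbp2, an interferon-induced GTPase, was at 0.239 to 0.513 CPM in control and 1.45 to 1.78 CPM with both agents (log2 fold change 1.92 ± 0.26, FDR = 1.2e-06), below IL-1β alone (FDR = 5.0e-04).

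Enzymes of inflammatory mediators rose in 10 of 17 tested genes and none fell, or 6 rose when control replicate 2 or combined replicate 3 was left out. Ptgs1 (cyclooxygenase 1, which starts prostaglandin synthesis) went from 0.420, 0.334, 0.526 and 0.556 to 1.62, 1.91, 2.28 and 3.08 CPM (log2 fold change 2.26 ± 0.29, FDR = 3.3e-07), and Cyba (a membrane subunit of NADPH oxidase) from 0.327, 0.792, 1.05 and 0.642 to 2.40, 1.87, 3.46 and 2.99 CPM (log2 fold change 1.92 ± 0.27, FDR = 1.7e-06). Neither overlapped control. Of 11 inflammasome and necroptosis genes 8 rose, led by Casp4, a caspase that senses lipopolysaccharide (2.30), and Casp1, which matures IL-1β, at 1.53.

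Both caspases were below their IL-1β-only level, at FDR = 2.1e-04 and 8.2e-06. In the BCL2 family, regulators of mitochondrial cell death, 6 of 15 rose and 2 fell. The death-promoting Bid rose by 1.35 and stood above both single exposures, although its exons overlap Bcl2l13 on the other strand over 17.7% of their length, while Pmaip1 (-1.32) and Bbc3 (-0.49), of the same kind, fell. The call of Pmaip1 was lost in a fit of the 8 libraries alone and when control replicate 3 or combined replicate 1 or 2 was left out.

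**Figure D3:**
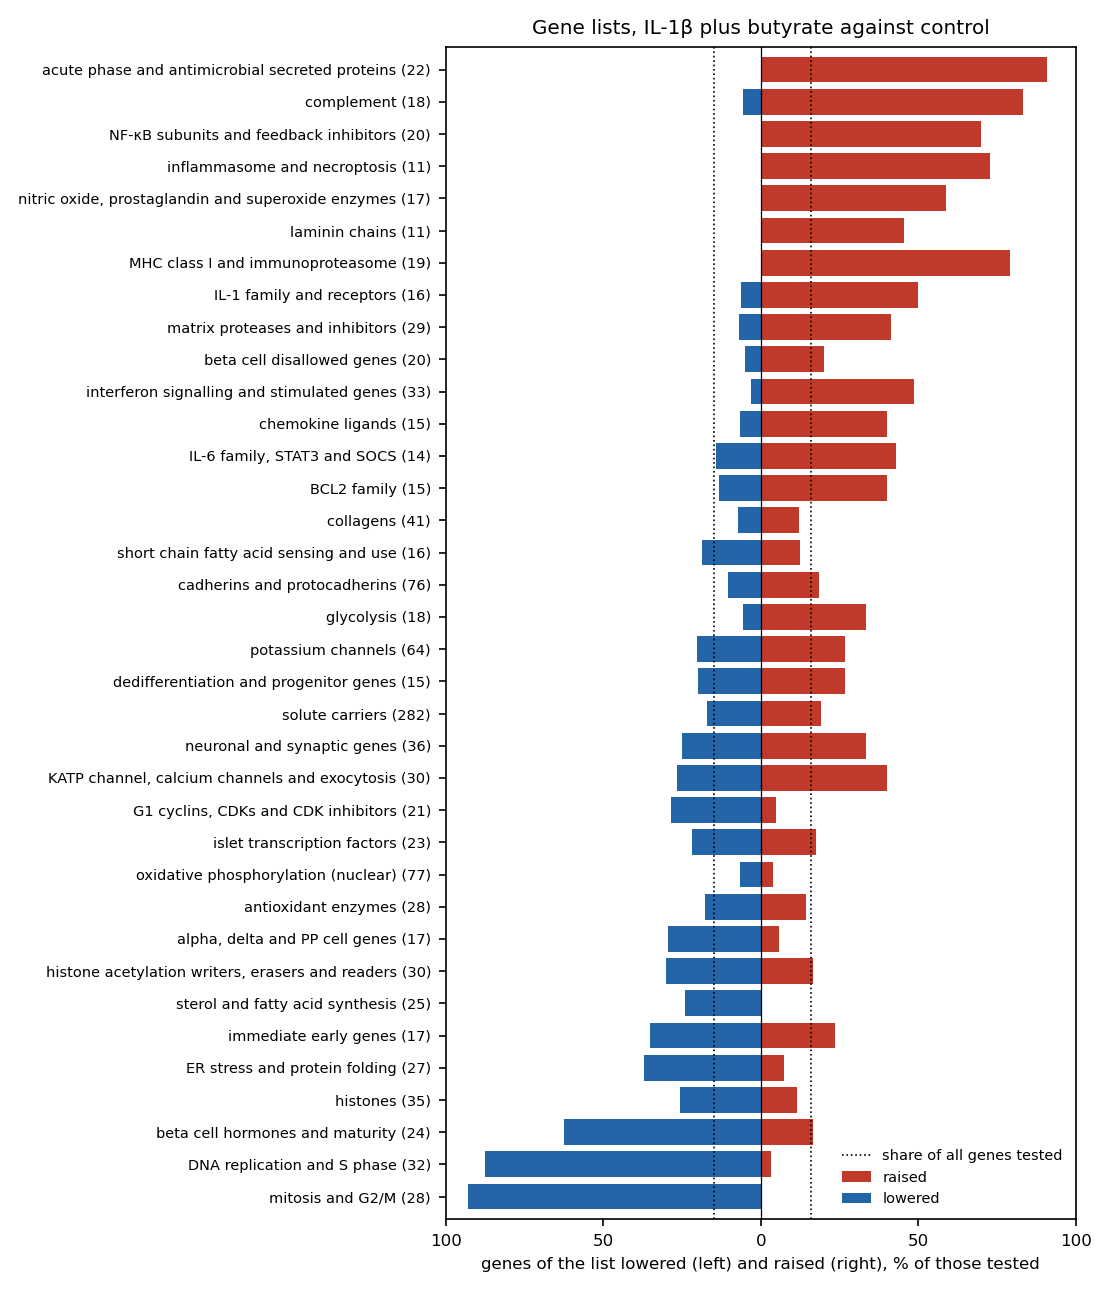
Share of the tested genes of each list (number tested in parentheses) that were raised (red, right) or lowered (blue, left) with IL-1β plus butyrate, ordered by the list's median log2 fold change; dotted lines mark the shares of all genes tested, 15.8% raised and 14.8% lowered. Acute phase genes stand at the top with 20 of 22 raised and mitosis genes at the bottom with 26 of 28 lowered.

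Transcripts that mark a mature beta cell were lower. Of 24 hormone and maturity genes tested, 15 fell and 4 rose, with a median of -0.52. Ins1 (ENSMUSG00000035804, chr19:52264297-52265476, plus strand) had 53891, 54244, 49740.0 and 48156 CPM in control and 32501, 34472, 33304 and 29524 CPM with both agents (log2 fold change -0.67 ± 0.07, FDR = 1.2e-08). Ins2, the other insulin gene of the mouse, had 138961, 156660.0, 142844 and 142085 and 86982, 99428, 91612 and 75756 CPM (log2 fold change -0.71 ± 0.08, FDR = 1.5e-07). In both genes every combined library was below every control library.

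The insulin genes differed in how the combined level related to IL-1β alone. Ins1 was below it (FDR = 6.3e-05, with IL-1β alone at -0.26 against control), and Ins2 was not told from it (FDR = 0.96, with IL-1β alone at -0.72). The interaction did not pass for either gene (FDR = 0.11 and 0.89).

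Mafa, a transcription factor of adult beta cells that drives insulin expression, had 434, 407, 368 and 377 CPM in control and 166, 132, 137 and 84.3 CPM with both agents (log2 fold change -1.61 ± 0.18, FDR = 1.1e-05). Slc2a2, the glucose transporter GLUT2, had 526, 494, 539 and 513 CPM in control and 258, 255, 289 and 206 CPM (log2 fold change -1.04 ± 0.09, FDR = 1.7e-08). Ucn3 (urocortin 3, a peptide of mature beta cells that stimulates delta cells) had 296, 312, 323 and 319 CPM in control and 131, 114, 139 and 126 CPM (log2 fold change -1.29 ± 0.05, FDR = 7.1e-17). Trpm5, a calcium-activated cation channel, had 87.8, 82.0, 86.9 and 78.9 and 33.3, 29.4, 29.6 and 20.4 CPM (log2 fold change -1.57 ± 0.15, FDR = 1.8e-06).

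None of these 4 groups overlapped. Mafa stood below both single exposures (FDR = 0.0062 against IL-1β alone), at a point where butyrate alone was at -0.03 against control. Slc30a8, the zinc transporter of insulin granules (-0.83), and Sytl4, a granule docking protein (-1.20), fell as well. G6pc2 (-0.09), Glp1r (-0.13) and Mlxipl (-0.00) did not pass.

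The raised members included Iapp, Pcsk1 and Gpr119. Iapp (amylin, co-secreted with insulin) had 22643, 23371, 20566 and 21299 CPM in control and 28889, 34337, 28772 and 30999 CPM (log2 fold change 0.49 ± 0.07, FDR = 2.8e-06), and Pcsk1, a convertase that cleaves proinsulin, had 905, 881, 781 and 804 and 1103, 1291, 1055 and 1243 CPM (log2 fold change 0.48 ± 0.06, FDR = 5.5e-07). Both were free of overlap. The other convertase, Pcsk2, fell (log2 fold change -0.53).

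IL-1β alone lowered 13 of the 24 and raised 6, with a median of -0.27, and butyrate alone lowered 6 and raised 4, with a median of -0.03. Of the 19 changed genes, 10 were on the IL-1β side, 4 beyond both, 1 on the butyrate side, 3 with neither difference and 1 in between.

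Islet transcription factors moved little: 4 of 23 rose and 5 fell, none by 2-fold, and 2 rose when control replicate 4 or combined replicate 1 was left out. Among all genes tested, 15.8% were raised and 14.8% lowered. Pdx1, a master regulator of beta cells, had 217, 216, 207 and 199.8 CPM in control and 182, 177, 178 and 159 CPM (log2 fold change -0.27 ± 0.05, FDR = 4.4e-05), and Nkx6-1 had 637, 586, 538 and 541 and 475, 431, 444 and 412 CPM (log2 fold change -0.38 ± 0.06, FDR = 1.4e-05). Neither overlapped. Rfx6 rose by 0.21 and Hnf4a fell (log2 fold change -0.38). With scaling by library size alone the list's median turned from -0.04 to 0.03.

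In the secretory machinery, 12 of 30 tested channel and exocytosis genes rose and 8 fell, or 5 when control replicate 1 or combined replicate 3 was left out, with a median of -0.00. Chgb (chromogranin B, a granule matrix protein) had 1973, 1930.0, 1864 and 1973 CPM in control and 7911, 9769.8, 9549.8 and 12622 CPM with both agents (log2 fold change 2.36 ± 0.14, FDR = 4.5e-09), the only member of the list raised 2-fold. Stx1a, a SNARE protein of granule fusion, went from 13.4, 12.3, 13.1 and 11.4 to 22.05, 18.7, 20.9 and 21.4 CPM (log2 fold change 0.73 ± 0.08, FDR = 2.9e-08), above both single exposures. Rab3d, a small GTPase of secretory granules, fell from 361, 368, 364 and 359 to 267, 266, 267 and 249.6 CPM (log2 fold change -0.47 ± 0.05, FDR = 1.4e-08).

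In each of these 3 genes the groups did not overlap. Kcnj11, the pore subunit of the KATP channel, was at 139 to 144 CPM in control and 128 to 143 CPM with both agents, overlapping ranges (log2 fold change -0.05 ± 0.05, FDR = 0.4). Its sign turned with scaling by library size alone, to 0.02.

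Hormones of the other islet cells moved differently from insulin. Sst (somatostatin, of delta cells) had 1552, 1860.4, 1573 and 1615 CPM in control and 2998, 2534, 2551 and 2479 CPM (log2 fold change 0.68 ± 0.08, FDR = 1.0e-06), without overlap. Gcg (glucagon, of alpha cells) had 22679, 19788, 22902 and 20744 CPM in control and 24777, 24365, 27313 and 24947 CPM, also without overlap, and lay just outside the threshold (log2 fold change 0.24 ± 0.07, FDR = 0.0101); it passed under 14 of 25 alternatives. Ppy (pancreatic polypeptide) had overlapping ranges, 1374 to 2053 CPM in control and 1354 to 1887 CPM (log2 fold change 0.08 ± 0.16, FDR = 0.73).

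Another transcript of alpha cells fell while Gcg did not. Ttr (transthyretin) had 960.2, 1189, 1221 and 1148 CPM in control and 345, 417, 467 and 429.9 CPM with both agents (log2 fold change -1.45 ± 0.12, FDR = 3.2e-07). It was without overlap and stood below both single exposures. Of the 17 genes of alpha, delta and PP cells tested, 1 rose and 5 fell (up to 4 rose when 1 library was left out, as without control replicate 1), the largest fall being that of Npy, neuropeptide Y (-4.14).

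Of 20 tested genes that healthy beta cells keep silent, 4 rose, 1 fell and 15 did not pass. Only 2 rose when control replicate 2 or combined replicate 3 was left out. The share raised was close to the 15.8% of all genes tested, and the share lowered was under their 14.8%. Igfbp4 (a binding protein of insulin-like growth factors) had 1.12, 0.751, 1.62 and 1.93 CPM in control and 21.6, 19.6, 29.2 and 20.8 CPM (log2 fold change 4.07 ± 0.17, FDR = 3.2e-14). Parp3, a DNA repair enzyme, had 1.17, 1.21, 1.10 and 1.46 and 5.20, 4.92, 5.47 and 6.02 CPM (log2 fold change 2.12 ± 0.15, FDR = 5.8e-12). The groups did not overlap for either, and both genes were above both single exposures. Ldha (lactate dehydrogenase A) did not pass at 1.18.

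Among 15 genes linked to progenitor states or to loss of beta cell identity, 4 rose and 3 fell. Cd81 (a tetraspanin of immature beta cells) went from 55.2, 62.4, 62.4 and 56.3 to 155, 162, 170.1 and 162 CPM (log2 fold change 1.46 ± 0.06, FDR = 1.3e-16), beyond both single exposures and without overlap. Aldh1a3, a retinoic acid enzyme seen in failing beta cells, had 14.3, 14.3, 20.2 and 24.9 CPM in control and 32.1, 41.0, 40.4 and 36.5 CPM (log2 fold change 1.02 ± 0.27, FDR = 0.0091), a call that was kept in 12 of 25 alternatives and lost without a filter on low counts or when 1 library was left out, namely control replicate 1, 2 or 3, any combined or IL-1β library, or butyrate replicate 3. Myc fell from 4.06, 4.67, 4.59 and 5.01 to 2.31, 1.78, 2.06 and 2.46 CPM (log2 fold change -1.09 ± 0.15, FDR = 1.1e-06).

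Genes of cell division were the most uniformly lowered. Of 28 mitosis and G2/M genes, 26 fell, all of these at least 2-fold, and none rose (median -2.40), and of 32 genes of DNA replication and S phase, 28 fell and 1 rose (median -0.81). Mki67 (ENSMUSG00000031004, chr7:135689784-135716361, minus strand), which encodes the proliferation antigen Ki-67, had 24.1, 38.7, 59.2 and 54.9 CPM in control and 2.56, 3.82, 7.36 and 6.16 CPM with both agents (log2 fold change -3.17 ± 0.40, FDR = 3.0e-05). Ube2c, the ubiquitin-conjugating enzyme of the anaphase-promoting complex, had 3.36, 5.84, 7.55 and 7.41 and 0.365, 0.297, 0.876 and 0.674 CPM (log2 fold change -3.45 ± 0.37, FDR = 1.6e-06). Foxm1, a transcription factor of G2/M genes, had 4.15, 7.55, 10.4 and 9.80 and 0.406, 0.467, 1.23 and 1.01 CPM (log2 fold change -3.37 ± 0.37, FDR = 3.3e-06).

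Control libraries spread widely for these genes, with replicate 1 lowest in all 3, and still none overlapped the combined group. The mitosis genes together summed to 158 to 332 CPM in control and to 46.3 to 71.1 CPM with both agents. Cenpf, a kinetochore protein, went from 6.63, 10.3, 16.3 and 13.1 to 0.812, 1.10, 1.75 and 1.35 CPM (log2 fold change -3.21 ± 0.34, FDR = 4.0e-06). In replication, Clspn (a checkpoint adaptor at the fork) went from 3.22, 4.71, 6.98 and 7.88 to 0.812, 0.849, 1.31 and 0.963 CPM (log2 fold change -2.53 ± 0.30, FDR = 2.2e-06) and Cdc6, which licenses origins, from 3.17, 4.38, 5.73 and 6.21 to 0.812, 1.15, 1.36 and 1.06 CPM (log2 fold change -2.15 ± 0.23, FDR = 3.8e-08).

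All of these were free of overlap. The raised gene was Ung, a uracil glycosylase of base repair, from 4.48, 5.80, 6.98 and 6.59 to 8.93, 8.11, 10.5 and 9.20 CPM (log2 fold change 0.62 ± 0.12, FDR = 1.8e-04). The members that did not pass were Mybl2 (-0.05) and Kif23 (-0.46) in mitosis, and Ccne1 (0.18), Prim1 (-0.02) and Gins1 (-0.65) in replication.

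Of the 26 lowered mitosis genes, 25 were on the butyrate side and 1 with neither difference, and none stood beyond both. Butyrate alone lowered 27 of the 28 with a median of -2.23, and IL-1β alone lowered 3 with a median of -0.54. In replication, 21 of the changed genes were on the butyrate side and 8 with neither difference. Butyrate alone lowered 29 of the 32 replication genes with a median of -0.90, against 11.4% of all genes tested. IL-1β alone lowered 12 of them with a median of -0.30, against 6.59% of all genes tested.

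**Figure D4:**
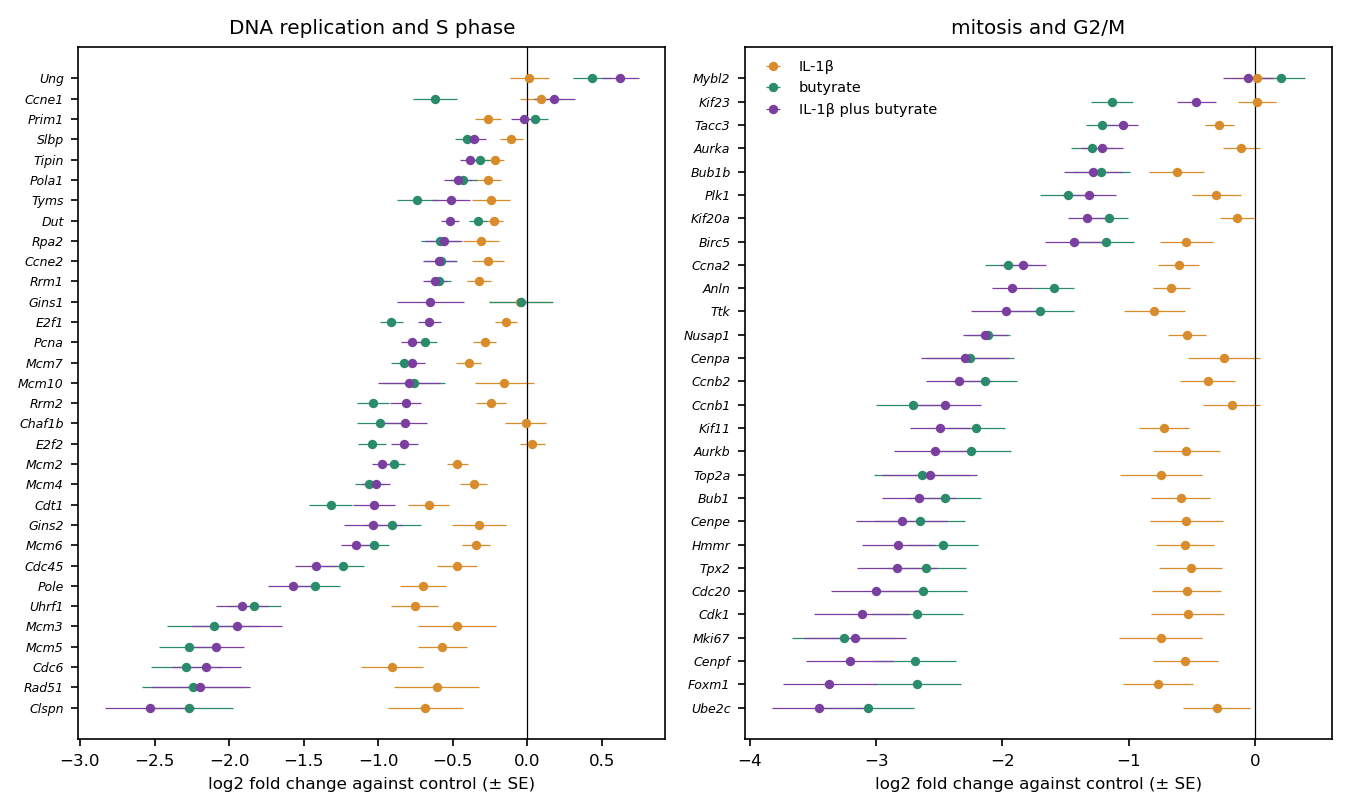
Log2 fold change against control (± SE) of each tested gene of DNA replication (left panel, 32 genes) and of mitosis (right panel, 28 genes) with IL-1β alone, butyrate alone and both. The combined points lie beside the butyrate points for most genes, from -3.45 for Ube2c to -0.05 for Mybl2 in mitosis. For most genes IL-1β alone lies closer to 0.

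Of the mitosis genes with a promoter sequence here that held a match, the 3 most lowered are shown, because 26 of 28 genes of the list fell and because CCAAT and the cell cycle homology region TTTGAA are the known elements of such promoters. Both motifs, searched on either strand, are in capitals. CCAAT was present in 78.3% of the mitosis promoters and 68.0% of the replication promoters, against 35.8% of all promoters searched. Among all lowered genes it was present in 42.1% of promoters on the butyrate side and 44.7% on the IL-1β side. TTTGAA was present in 30.4% of the mitosis promoters and 8% of the replication promoters, against 11% of all.
Ube2c (chr2:164769679-164769928, plus strand): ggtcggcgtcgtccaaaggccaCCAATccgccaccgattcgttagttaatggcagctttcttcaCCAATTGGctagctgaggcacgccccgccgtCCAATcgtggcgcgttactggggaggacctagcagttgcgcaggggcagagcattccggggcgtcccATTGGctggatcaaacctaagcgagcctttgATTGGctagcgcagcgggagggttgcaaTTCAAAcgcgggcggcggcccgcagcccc
Cenpf (chr1:189688087-189688336, minus strand): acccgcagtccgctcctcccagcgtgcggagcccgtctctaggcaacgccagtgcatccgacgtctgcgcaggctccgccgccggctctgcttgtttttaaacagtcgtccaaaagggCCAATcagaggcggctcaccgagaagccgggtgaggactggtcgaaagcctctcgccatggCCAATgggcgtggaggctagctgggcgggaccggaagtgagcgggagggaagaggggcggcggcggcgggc
Mki67 (chr7:135716380-135716629, minus strand): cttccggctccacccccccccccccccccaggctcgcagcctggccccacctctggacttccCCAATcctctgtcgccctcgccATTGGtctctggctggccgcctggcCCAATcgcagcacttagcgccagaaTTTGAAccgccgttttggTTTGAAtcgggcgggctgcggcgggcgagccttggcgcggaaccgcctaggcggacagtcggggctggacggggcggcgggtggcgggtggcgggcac
Ube2c and Mki67 held both motifs, and the Cenpf window held CCAAT only. In Ube2c a pair of CCAAT matches on opposite strands overlaps.

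Genes of the G1 phase were mixed, with 6 of 21 lowered and 1 raised, the latter not called when control replicate 1 or 2 or combined replicate 1 or 3 was left out. Cdkn1a (p21, an inhibitor of cyclin-dependent kinases) had 65.9, 68.5, 61.5 and 59.4 CPM in control and 48.8, 43.1, 39.8 and 37.6 CPM (log2 fold change -0.59 ± 0.08, FDR = 2.8e-06), lower with both agents without overlap. Cdkn2c (the inhibitor p18) went from 10.2, 13.3, 17.5 and 17.0 to 5.04, 5.69, 6.66 and 5.83 CPM (log2 fold change -1.32 ± 0.16, FDR = 3.9e-06), and Ccnd2, the cyclin that drives beta cell replication, from 753, 797, 916 and 857 to 499, 525, 580.1 and 498 CPM (log2 fold change -0.66 ± 0.07, FDR = 3.2e-08). Ccnd2 stood on the IL-1β side (FDR = 6.1e-07 against butyrate alone) and Cdkn1a on the butyrate side (FDR = 1.9e-06 against IL-1β alone).

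The genes furthest beyond both single exposures included proteins with no shared list. Serpina7 (ENSMUSG00000031271, chrX:139079257-139085236, minus strand), thyroxine-binding globulin, had 10.1, 11.5, 12.9 and 15.02 CPM in control and 52.2, 89.8, 83.8 and 109 CPM with both agents (log2 fold change 2.75 ± 0.23, FDR = 6.0e-07). IL-1β alone was at 26.9, 35.8, 34.1 and 35.7 CPM and butyrate alone at 13.6, 7.24, 10.97 and 10.8 CPM, so that every combined library was above all 12 others. Slc44a4, a thiamine pyrophosphate and choline transporter, had 1.07, 1.42, 1.15 and 1.63 CPM in control and 5.24, 6.15, 6.96 and 7.42 CPM (log2 fold change 2.27 ± 0.16, FDR = 4.3e-12), above 1.86, 2.58, 1.92 and 1.95 CPM with IL-1β and 2.46, 2.49, 2.93 and 2.45 CPM with butyrate.

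In the lowered direction, Meltf (ENSMUSG00000022780, chr16:31878810-31899020, plus strand), melanotransferrin, an iron-binding membrane protein, had 43.4, 34.4, 40.6 and 39.6 CPM in control and 8.28, 5.69, 6.48 and 5.06 CPM with both agents (log2 fold change -2.62 ± 0.18, FDR = 2.7e-08). Single exposures lay in between, -0.94 for IL-1β and -1.56 for butyrate. Npy had 10.6, 12.2, 7.93 and 6.55 CPM in control and 0.487, 0.340, 0.745 and 0.530 CPM (log2 fold change -4.14 ± 0.29, FDR = 1.7e-09). Col6a3, a collagen VI chain, had 18.8, 15.7, 13.5 and 13.9 and 3.37, 2.504, 3.85 and 3.23 CPM (log2 fold change -2.25 ± 0.17, FDR = 1.8e-09).

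P2ry6, a receptor for uridine diphosphate, had 45.5, 45.9, 44.3 and 42.9 CPM in control and 16.8, 13.4, 13.9 and 12.9 CPM (log2 fold change -1.64 ± 0.09, FDR = 1.5e-11), with -0.72 for IL-1β and -0.65 for butyrate alone. Abca4 (-1.94), a lipid flippase, and Adam32 (-1.82), an ADAM family membrane protein, fell as well. None of these lowered genes had a combined library within its control range. The interaction did not pass for any of the 12 genes, with FDR between 0.12 and 1, by edgeR, while DESeq2 called 1 of them, Serpina7.

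**Figure D5:**
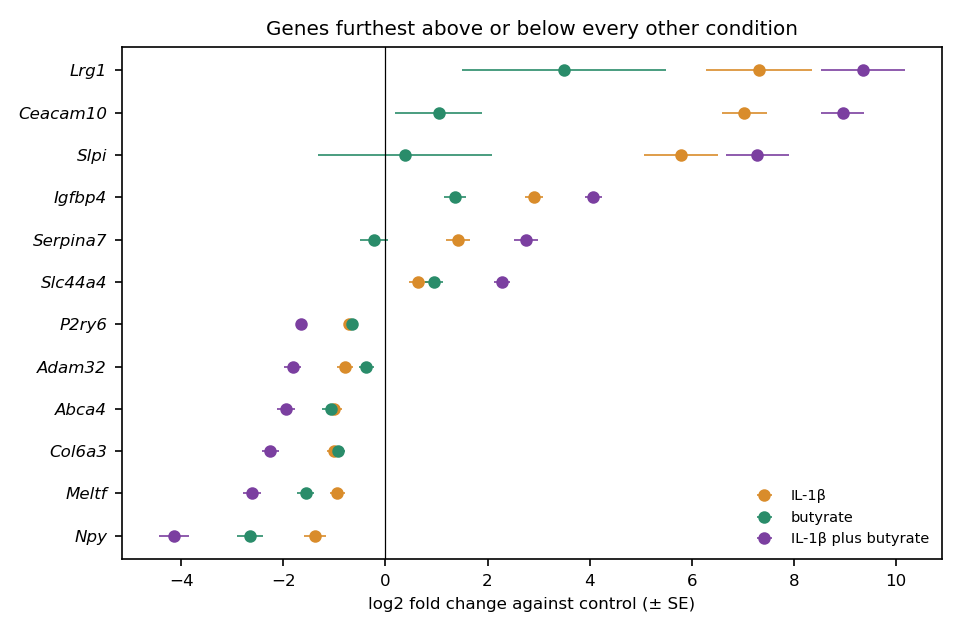
Log2 fold change against control (± SE, n = 4 libraries a group) of the 6 genes furthest above and the 6 furthest below every other condition, with IL-1β alone, butyrate alone and both. Serpina7 stands at 1.42, -0.23 and 2.75, and Meltf at -0.94, -1.56 and -2.62.

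The 4 genes beyond both whose interaction passed were picked out after their values were seen. Odc1 (ornithine decarboxylase, the first enzyme of polyamine synthesis) had 74.7, 77.9, 78.8 and 83.3 CPM in control, 308, 301, 272 and 257 with IL-1β, 70.2, 69.4, 81.3 and 83.4 with butyrate and 377, 434, 375 and 395 with both (interaction 0.52 ± 0.09 on the log2 scale, FDR = 0.0098). Alcam (a leukocyte adhesion molecule) had 149.9, 132, 134 and 125 CPM in control, 336, 303, 309.5 and 315 with IL-1β, 124, 113, 108 and 112 with butyrate and 404, 419, 384 and 401 with both (interaction 0.59 ± 0.08 on the log2 scale, FDR = 1.5e-04). Butyrate alone was below control for Alcam (log2 fold change -0.24, FDR = 0.0011) and was not told from control for Odc1 (-0.05, FDR = 0.65). In both genes the combined libraries were above all others.

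Morc3, a nuclear body protein, was also highest with both agents. It had 43.1 to 45.2 CPM in control and 69.8 to 76.2 with IL-1β. With butyrate it had 39.6 to 46.3 CPM, not told from control (FDR = 0.49), and with both 91.4 to 106 (interaction 0.50 ± 0.08 on the log2 scale, FDR = 0.0012). Bace2, a protease that cleaves amylin and the regulator of beta cell mass Tmem27, went the other way, with 298 to 315 CPM in control, 341 to 368 with IL-1β, 271 to 307 with butyrate and 234 to 260.0 with both (interaction -0.46 ± 0.07 on the log2 scale, FDR = 6.6e-04). Its combined libraries were below all others.

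The most lowered of the abundant genes, Nptx2, had 149, 138, 117 and 108 CPM in control and 6.66, 4.67, 4.77 and 2.70 CPM with both agents (log2 fold change -4.75 ± 0.40, FDR = 5.9e-07), at -1.49 with IL-1β and -3.08 with butyrate alone. Tacr3 (the neurokinin 3 receptor) had 9.66, 8.26, 4.87 and 4.28 and 0.731, 0.467, 0.0876 and 0.0963 CPM (log2 fold change -4.22 ± 0.55, FDR = 3.0e-05). Neither gene is in the list of neuronal and synaptic genes. Of the 36 genes of that list tested, 12 rose and 9 fell (median 0.01).

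The raised end of that list held Stmn3, a microtubule destabiliser, from 9.29, 13.8, 12.2 and 12.3 to 27.3, 30.9, 31.2 and 34.6 CPM (log2 fold change 1.38 ± 0.11, FDR = 8.8e-09), and Shank1, a synaptic scaffold, from 10.4, 10.1, 10.9 and 14.2 to 29.2, 19.99, 24.5 and 27.2 CPM (log2 fold change 1.15 ± 0.16, FDR = 4.0e-05). Both stood on the butyrate side, without overlap. Stmn1, a stathmin that is also high in dividing cells (-2.79), and Sv2b, a synaptic vesicle protein (-1.09), fell.

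Of 64 potassium channel genes tested, 17 rose and 13 fell. Kcna7 (a voltage-gated channel) rose from 0.513, 0.625, 0.0956 and 0.642 to 3.53, 2.72, 2.80 and 3.13 CPM (log2 fold change 2.66 ± 0.25, FDR = 1.6e-09) and Kcnt1 (a sodium-activated channel) from 0.793, 0.917, 1.96 and 1.93 to 6.25, 5.14, 5.21 and 5.78 CPM (log2 fold change 2.00 ± 0.21, FDR = 4.0e-08). Kcnk16, the background channel TALK-1 of beta cells, fell from 436, 448, 412 and 408 to 137, 136, 142 and 141 CPM (log2 fold change -1.61 ± 0.06, FDR = 7.6e-18). No groups overlapped in these 3 genes, and all 3 were on the butyrate side, with 2.68, 1.45 and -1.64 under butyrate alone.

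Among 282 solute carriers tested, 54 rose and 48 fell, shares close to the 15.8% raised and 14.8% lowered among all genes tested. Slc6a14, an amino acid transporter, had 2 counts over the control libraries and 1851 over the combined ones, a ratio of 904 (95% interval 250.0 to 7474). Slc52a3 (a riboflavin transporter) went from 0.513, 0.5003, 0.621 and 0.428 to 3.29, 2.76, 2.85 and 2.74 CPM (log2 fold change 2.49 ± 0.20, FDR = 1.4e-10), beyond both single exposures. Slc38a3 (a glutamine transporter) went from 0.467, 0.542, 0.526 and 0.471 to 2.92, 2.80, 2.76 and 2.26 CPM (log2 fold change 2.41 ± 0.23, FDR = 2.7e-09), below butyrate alone at 3.06. Only 2 of the 48 lowered carriers fell 2-fold, Slc38a5 (-1.10) and Slc2a2.

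Against 15.8% raised and 14.8% lowered among all genes tested, the matrix lists were mixed. Laminin chains rose in 5 of 11 tested genes and none fell. Lama5 had 5.69, 5.80, 6.35 and 6.76 CPM in control and 24.4, 23.1, 23.2 and 26.8 CPM (log2 fold change 1.98 ± 0.09, FDR = 6.1e-16), with IL-1β alone at -0.46 and butyrate alone at 1.91. Lamb3 went from 0.327, 0.292, 0.478 and 0.342 to 8.77, 10.1, 9.20 and 11.7 CPM (log2 fold change 4.78 ± 0.27, FDR = 2.2e-11), with 5.46 under IL-1β and 0.72 under butyrate alone.

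Lama5 was not told from butyrate alone (FDR = 0.55), Lamb3 was below IL-1β alone (FDR = 0.0015), and neither overlapped control. Of 29 matrix proteases and their inhibitors, 12 rose and 2 fell. Mmp9 (gelatinase B) had 0.233, 0.167, 0.287 and 0.128 CPM in control and 1.14, 1.74, 2.58 and 2.65 CPM (log2 fold change 3.29 ± 0.43, FDR = 1.3e-06), and Mmp13 (a collagenase) 0.560, 0.667, 0.573 and 0.685 and 2.193, 5.05, 2.58 and 3.52 CPM (log2 fold change 2.41 ± 0.34, FDR = 6.9e-06), both above both single exposures. Of 41 collagens 5 rose and 3 fell, with Col9a2 from 4.59 to 5.35 to 20.2 to 23.9 CPM (log2 fold change 2.12 ± 0.10, FDR = 7.6e-16). Of 76 cadherins and protocadherins 14 rose and 8 fell, or 5 fell when control replicate 3 or combined replicate 1 was left out.

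In the ER stress and folding list, 10 of 27 genes fell and 2 rose, or 1 when control replicate 3 or combined replicate 2 was left out (median -0.13). Sdf2l1, an ER cochaperone, had 259, 326, 288 and 293 CPM in control and 153, 148, 147 and 141 CPM (log2 fold change -0.98 ± 0.12, FDR = 9.7e-06), whereas Ern1, the stress sensor IRE1α, had 453, 382, 419.7 and 409 and 594, 553, 568 and 593 CPM (log2 fold change 0.47 ± 0.06, FDR = 1.8e-07). Neither overlapped.

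Among 28 antioxidant genes 4 rose and 5 fell, shares close to the 15.8% raised and 14.8% lowered among all genes tested. Gpx2, a glutathione peroxidase, went from 63.5, 68.9, 53.4 and 57.7 to 11.8, 12.5, 10.6 and 10.8 CPM (log2 fold change -2.41 ± 0.13, FDR = 4.8e-10), while IL-1β alone was at 0.55 and butyrate alone at -3.19. Gpx1 rose by 0.48 and Sod2, the mitochondrial superoxide dismutase, by 0.30. Of 77 nuclear genes of oxidative phosphorylation 3 rose and 5 fell, of 18 glycolytic genes 6 rose and 1 fell, and of 25 genes of sterol and fatty acid synthesis none rose and 6 fell, or 2 and 5 with scaling by library size alone.

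Immediate early genes, which respond fast to stimulation, included 4 raised and 6 lowered of 17. Egr1 had 35.2, 26.7, 27.9 and 17.8 CPM in control and 8.57, 8.23, 6.92 and 7.75 CPM (log2 fold change -1.77 ± 0.21, FDR = 1.6e-05), with -1.70 under butyrate alone, and Fosb fell (log2 fold change -1.44). Junb went from 20.6, 22.01, 19.5 and 17.5 to 46.2, 49.3, 47.6 and 48.0 CPM (log2 fold change 1.26 ± 0.09, FDR = 7.2e-10), with 1.5 under IL-1β alone. The groups of Egr1 and Junb did not overlap.

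Butyrate inhibits histone deacetylases and binds fatty acid receptors, and no gene that passed in the lists of histone acetylation or of short chain fatty acid sensing moved by 2-fold. Of 30 histone acetylation genes 5 rose and 9 fell, or 9 and 4 with scaling by library size alone and 3 rose when control replicate 2 or 4 or combined replicate 3 was left out, with the deacetylase Hdac7 at 0.65 and the acetyltransferase Kat2b at -0.56. Of 16 genes that sense or use short chain fatty acids 2 rose and 3 fell, among them Acads, the short chain acyl-CoA dehydrogenase (0.78), and the receptor Ffar3 (-0.29). Of 89 histone genes, 35 could be tested, of which 4 rose and 9 fell; copies of these genes share reads.

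The islet label held against its defining markers, since the beta cell markers summed to 213491 to 236289 CPM in control and to 137267 to 169347 CPM with both agents. Markers of other cells the preparation could hold were low or mixed. Of 9 endothelial markers 2 rose (Egfl7 at 2.38 and Pecam1 at 0.90), with a sum of 16.8 to 18.7 CPM in control and 23.5 to 29.5 CPM with both agents. Of 10 fibroblast, stellate or pericyte markers 1 rose and 2 fell, the rise not called when control replicate 2 or 4 or combined replicate 3 was left out, with sums of 11.3 to 21.0 and 8.04 to 24.1 CPM. Acinar markers, with 1 of 6 lowered but a median of 1.34 and 1 of the 13 listed without a count in the 8 libraries, summed to 19.2 to 30.9 and 10.3 to 19.4 CPM, so the median and the sum differ in sign.

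Duct markers summed to 372 to 399 CPM in control and 553 to 847 CPM with both agents, and 2 of 6 tested rose, Spp1 and Muc1, with none lowered. Spp1 (osteopontin, also made by macrophages) had 8.12, 11.8, 14.4 and 13.2 CPM in control and 192, 361, 381 and 459.7 CPM (log2 fold change 4.87 ± 0.39, FDR = 3.6e-07), without overlap, and its exons overlap Gm42793 on the same strand over 18.8% of their length. Muc1, a membrane mucin, had 0.887, 1.00, 0.860 and 0.856 CPM in control and 3.45, 2.76, 3.33 and 2.99 CPM (log2 fold change 1.79 ± 0.17, FDR = 1.6e-09). Krt19 (0.25), Krt7 (0.01) and Sox9 (0.13) did not pass. No lymphocyte marker of 3 tested passed, nor the 1 neutrophil marker tested, and 1 of 4 Schwann cell markers fell, a call lost when control replicate 1 or 4 or combined replicate 1 or 4 was left out. The part of these cells in the results was not tested.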

How the data were processed

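Gene counts were taken from the table that the authors deposited for the whole series, which holds raw counts of 52636 genes in 16 libraries without normalization. Per the methods and the submitters' processing notes, 250 ng of RNA from 500 islets gave single-end libraries for an Illumina HiSeq, and reads were mapped to mm10 (GRCm38.p5) with STAR 2.5.3a. The counting tool, its annotation release and its strand setting are not given in the sources used here, so reads of overlapping or antisense genes cannot be told apart. The methods give another C57BL/6 substrain than the labels. Symbols and positions came from GENCODE M21, which held 52489 of the identifiers, and 10560 genes had no count in any library.

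Groups came from the sample labels, 4 libraries each. No source names the pools of mice, so p-values measure the spread between these samples. All 16 libraries were fitted together in edgeR 4.0.16 (R 4.3.3, limma 3.58.1) with TMM normalization, the filterByExpr filter over the 4 conditions and the robust quasi-likelihood test, with p-values adjusted by Benjamini-Hochberg and the study's threshold of 0.01. The study used DESeq2 and gives no design formula, so DESeq2 1.42.0 was an alternative. CPM was computed on TMM-scaled library sizes. Genes at or under 3 counts in every library of a group are given against that floor, or as a ratio with an exact 95% interval, both of which cover counting error only. Scripts were tested on simulated counts.

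Named were the 10 largest rises and 10 largest falls among genes that passed, had a mean log2 CPM of at least 1 and did not overlap between groups, the 6 furthest above and 6 furthest below every other condition, up to 3 members of each of 48 gene lists in each direction, and a set of anchor genes. Other list members are named beside their counts, and some genes counted in the lists are not reported by name here. Genes, lists and tests were chosen with earlier results of these data known. Promoter sequences were those of RefSeq on GRCm38.p6, matched to 12546 of the genes tested.

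Replicate numbers come from the sample titles, and no label says what they share. The paper describes 4 independent experiments for these data and does not say whether a number marks an experiment. Same-numbered control and combined libraries deviated together from their group means, with correlations of 0.46, 0.24, 0.22 and 0.33 over 12544 genes. Combined replicate 3 correlated slightly better with control replicate 4 (0.24). Between butyrate alone and the combined group 1 correlation of same-numbered libraries was 0.08. The main fit held the group only, so its FDR values and counts ignore any such pairing. A replicate block was run as an alternative and called 6899 genes against control, where the main fit called 5688. Replicates of a group differed by more than sampling noise. Alternatives were DESeq2, other normalizations, filters and thresholds, a replicate block, a fit of the 8 libraries alone and leaving out each library.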

Additional observations from a re-analysis of the deposited data

Results flagged for a closer look

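For 128 genes of the text, the control and combined groups of 4 libraries, 256 groups in all, were searched for a library far from the rest of its group, which chance gives in about 1 in 20 groups. There were 11, of which 3 were in control and 8 in the combined group. With both agents, replicate 4 lay below the others for Adam32 (1.44 CPM), Ppy (1354 CPM) and Rab3d (249.6 CPM), and replicate 3 for Casp1 (0.657 CPM). Replicate 2 lay above the others for Cxcl1 (13.6 CPM) and Serpina3e-ps (16.3 CPM), and replicate 1 for Il18r1 (2.68 CPM) and Sst (2998 CPM). In control, replicate 4 lay above the others for Ceacam10 (1.16 CPM) and replicate 1 for Tnfaip3 (6.25 CPM), and replicate 2 lay below them for Itgb8 (16.8 CPM).

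The effect of IL-1β differed with and without butyrate for 9 genes described in the text or under the other observations, by the interaction term of edgeR's quasi-likelihood test with Benjamini-Hochberg adjustment. The difference was downward for Nos2 (-5.53 on the log2 scale, FDR = 0.0044), Lama1 (-2.13, FDR = 1.5e-04), Aqp4 (-0.78, FDR = 0.0073), Itgb8 (-0.53, FDR = 0.0044) and Bace2 (-0.46, FDR = 6.6e-04). It was upward for Mat1a (0.44, FDR = 0.0012), Morc3 (0.50, FDR = 0.0012), Odc1 (0.52, FDR = 0.0098) and Alcam (0.59, FDR = 1.5e-04). The control libraries held at most 2 counts of Nos2, so the size of its interaction depends on the small count added by the fit.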

How the results depend on the processing

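Under 25 alternatives the number of genes changed against control stayed within 1.5 times of 5688. It was 5691 with DESeq2 (5524 of them shared), 5689 with library size only, 5721 without a filter on low counts, 7438 at an adjusted p under 0.05, and 5029 to 5971 when 1 library was left out. The counts of genes beyond both single exposures and of the interaction moved by over 1.5 times. Of the former, the 287 raised genes became 495 at an adjusted p under 0.05 and 202 to 299 when 1 library was left out, and the 150 lowered genes became 88 with library size only, 337 at an adjusted p under 0.05 and 124 to 195 when 1 library was left out. A replicate block in the model gave 6899 changed genes, of which 5686 were shared, and the genes beyond both single exposures numbered 469 raised and 301 lowered. Of the 12 genes named as beyond both, none passed the interaction term in edgeR and 1, Serpina7, passed with DESeq2. The interaction count over all genes, 18, ran from 11 to 132 (replicate block). Of 211 named genes, 190 kept their call under every alternative, and over 5267 pairs of a gene and an alternative 92 lost the call and 16 gained it. Among genes described above, Aldh1a3 lost its call in 13 of 25 alternatives, Pmaip1 in 4, and Cxcl5 in 1 of 24 (without butyrate replicate 4), while Gcg gained one in 14 of 25, the replicate block included, and Nos2 in 2 of 24. The direction of the named genes was kept throughout, except that Kcnj11, which passed in none, turned from -0.05 to 0.0225 with library size only. The causes of these shifts were not tested, apart from the looser threshold, which by construction adds calls. Depth limits the genes at or under 3 counts in every control library.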

Other observations

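Levels in all 4 groups are given for 4 further genes that passed the interaction term, chosen after their values were seen. Lama1, the laminin α1 chain of basement membranes, had 1.26, 1.58, 1.15 and 1.33 CPM in control, 13.5, 10.3, 9.64 and 9.53 CPM with IL-1β alone, 1.10, 1.42, 1.20 and 1.46 CPM with butyrate alone and 2.80, 2.89, 1.53 and 2.31 CPM with both agents (against control, log2 fold change 0.84 ± 0.20, FDR = 0.001). The level with both agents was below every library with IL-1β alone, and it overlapped control. Aqp4, a water channel, had means of 13.99 ± 2.12 CPM (SD, n = 4) in control, 73.8 ± 2.22 CPM with IL-1β alone, 19.2 ± 1.61 CPM with butyrate alone and 58.9 ± 6.97 CPM with both agents.

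Itgb8, the integrin β8 subunit, had 18.4 ± 1.11 CPM (SD, n = 4) in control, 84.8 ± 6.83 CPM with IL-1β alone, 17.9 ± 0.967 CPM with butyrate alone and 57.0 ± 3.63 CPM with both agents. Mat1a, a methionine adenosyltransferase that makes S-adenosylmethionine, had 81.7 ± 4.28 CPM in control, 162 ± 8.35 CPM with IL-1β alone, 54.4 ± 0.873 CPM with butyrate alone and 146 ± 4.86 CPM with both agents. Aqp4, Itgb8 and Mat1a were above control with both agents, without overlap.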
